A study of Arabidopsis thaliana with 6 samples.

Results

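The genes described here encode arabinogalactan proteins (AGP) and fasciclin-like arabinogalactan proteins (FLA) of the plant cell wall. They are the loci on the array whose annotated symbol is AGP or FLA followed by a number, apart from AT4G40090 (AGP3). The rule gave 48 of 32627 loci, 29 with an AGP symbol and 19 with an FLA symbol. Transcript levels in Arabidopsis thaliana roots were read on one-colour NimbleGen arrays, with 3 arrays of the pER8::OBP4 line and 3 of the control line, pER8::GFP. The pER8 vector switches its transgene on when estradiol is given. Seedlings 5 days old, of both lines, were kept on 10 µM estradiol for 8 h, so the GFP control roots had received estradiol too. The labels give a light cycle of 16 h of light and 8 h of dark. OBP4 belongs to the DOF transcription factors, and the study asks how it acts on the elongation of cells, on growth of the root and on callus. The labels say that replicates were cultured on separate plates. How many independent transgenic lines stand behind each genotype is not stated in the labels, and arrays without estradiol were not analysed here. A difference between the lines that precedes induction therefore cannot be told apart from an effect of OBP4.

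Arabinogalactan proteins are secreted proteins rich in hydroxyproline that carry large, branched sugar chains of galactose and arabinose. Many are held at the outer face of the plasma membrane by a glycosylphosphatidylinositol (GPI) anchor. Classical AGPs have a short backbone of proline, alanine, serine and threonine, the lysine-rich AGPs add a basic stretch, AG peptides are very small, and chimeric AGPs join an AGP region to another domain. FLA proteins carry fasciclin domains, which are known in other organisms for cell adhesion, and are sorted by sequence into groups A to D. In roots, members of both families are known for parts in cell expansion, root hairs and the response to salt.

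OBP4 transcript itself, read first as a check of the labels, was 15.74, 15.83 and 15.86 on the log2 scale in OBP4 roots, against 14.37, 14.78 and 14.48 in GFP control roots. Its difference was 1.27 ± 0.12 (SE), with limma's adjusted p = 0.00279. No value in the tables exceeded 15.93, near the limit that 16 bits can hold. The OBP4 arrays lay close to that ceiling, so this difference may be compressed. Arrays of one group correlated at 0.982 to 0.995 over loci, and arrays of different groups at 0.97 to 0.985. The root genes PYK10, PIN2, SCR, SHR and WER were present, with means over all arrays of 12.28 to 15.9, and of these WER fell by 0.53. Photosynthesis genes, which mark shoot tissue, varied within both groups: the median level of 22 of them was 15.38, 11.49 and 13.84 in the OBP4 arrays and 12.57, 12.02 and 13.38 in the GFP arrays, and 0 of the 22 passed the test, with 0 also at an unadjusted p under 0.05. Yet 21 of the 22 differences were positive, with a median of 0.87, against 0.02 over all loci. The absence of calls therefore does not show equal amounts of shoot tissue in both groups. Of 9 root hair genes 6 fell (66.7%) and 0 rose, and of 4 root cap genes 2 fell (50%) and 0 rose. Of all loci, 8.48% passed the test as lower and 5.23% as higher.

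In the AGP and FLA set, 6 genes were higher and 2 were lower in OBP4 roots. The increases were AGP27, AGP25, AGP6, AGP5 and AGP10, all classical AGPs, and FLA10, and the decreases were FLA13 and FLA21. A gene was called where limma's p, adjusted by Benjamini-Hochberg across every locus tested, was below 0.05. The 6 of 48 higher members are 12.5%, against 5.23% of all loci, and the 2 lower members are 4.17%, against 8.48% of all loci. At an unadjusted p under 0.05, 20 of the 48 differed (41.7%, against 28.5% of all loci). Most of the 48 genes, with or without a call, lay below 0: 34 differences (70.8%) were negative, against 46.8% of all loci. The median difference of the 48 was -0.15, against 0.02 over all loci. These shares are descriptions and carry no test of the set.

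**Figure D1:**
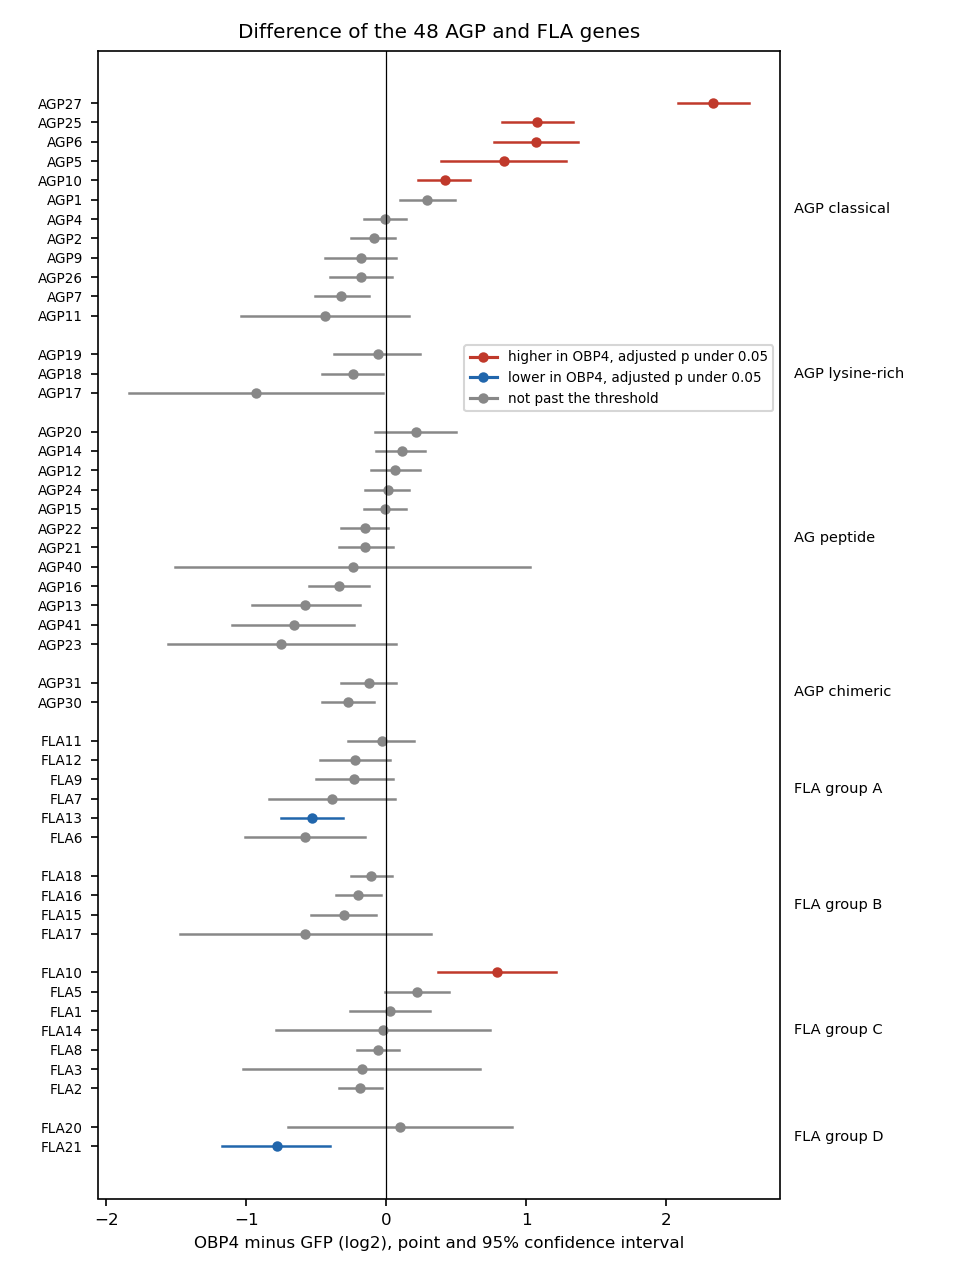
Difference between OBP4 and GFP control roots (horizontal axis, log2) for each of the 48 AGP and FLA genes, grouped by class, with points for the limma estimate and bars for its 95% confidence interval. The largest difference is that of AGP27 at 2.33, and the 5 called AGP genes all stand in the classical class at the top.

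The strongest change in the set was the increase of AGP27 (AT3G06360; chromosome 3, 1928902 to 1929446, forward strand; all positions come from the annotation printed with the array values, and the sources used here do not name its genome build). Its log2 level was 13.24, 13.47 and 13.48 in OBP4 roots, against 11.18, 10.96 and 11.06 in GFP control roots. All OBP4 arrays stood more than 2 log2 units above all GFP arrays, and arrays of one group lay close together. The means were 13.4 ± 0.13 and 11.07 ± 0.11 (SD, n = 3 each), and the difference of 2.33 ± 0.10 (SE) equals a 5.04-fold higher level, with limma's adjusted p = 0.000483. By size it ranked 113 among the 1705 loci called higher. The call was kept in each of the 6 fits that left out 1 array, with differences of 2.28 to 2.41. In the deposited series-wide table of the same samples AGP27 differed by only 0.30 and was not called (limma's adjusted p = 0.0969). OBP4 itself differed by 0.01 there. The genes on either side on the chromosome, MEE32 and NHX4, had differences of -0.07 and -0.31 and no call.

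AGP25 and AGP6, also classical AGPs, each rose by about 1 log2 unit. AGP25 (AT5G18690; chromosome 5, 6233519 to 6234206, reverse strand) read 15.31, 15.4 and 15.41 in OBP4 roots, against 14.31, 14.45 and 14.13 in GFP control roots. AGP25 thus differed by 1.08 ± 0.10 (SE), a 2.11-fold change at limma's adjusted p = 0.00237. The OBP4 arrays again lay close to the ceiling, so this fold may be compressed too. AGP6 (AT5G14380; chromosome 5, 4635797 to 4636676, reverse strand), which is known from pollen, read 10.38, 10.57 and 10.43 in OBP4 roots, against 9.33, 9.23 and 9.61 in GFP control roots. No array of one group reached the other in either gene. AGP6 differed by 1.07 ± 0.12 (SE), a 2.1-fold change at limma's adjusted p = 0.00464. Both calls were kept in all 6 fits that left out 1 array. Neither was called in the series-wide table, with differences of 0.34 for AGP25 and -0.20 for AGP6 (limma's adjusted p = 0.115 and 0.757).

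The rise of AGP6 was not accompanied by calls among the other members known from pollen. AGP11, the gene with which AGP6 acts redundantly in pollen, read 9.41, 8.72 and 8.78 in OBP4 roots, against 9.25, 9.25 and 9.73 in GFP control roots, and its groups overlapped. The AGP11 difference was -0.44 ± 0.24 (SE), with a 95% confidence interval of -1.04 to 0.16. AGP23, AGP40, FLA3 and FLA14, which are likewise known from pollen, had means of 5.98 to 6.88 in each group, differences of -0.75 to -0.02 and no call. AGP24, listed with them, was at the ceiling and differed by 0.01. Among 5 pollen genes chosen as markers, GEX1, a gene of gametes, rose by 1.07 ± 0.08 (SE; limma's adjusted p = 0.00123), and ANX1, ANX2, VGD1 and PPME1 had differences of -0.16 to 0.45 and no call. The summed linear level of these 5 genes was 2468 to 2782 in the OBP4 arrays and 1790 to 2463 in the GFP arrays. Their part in the AGP6 result was not tested. PPME1, a pectin methylesterase gene of pollen, averaged 7.86 ± 0.06 in OBP4 roots and 8.02 ± 0.95 in GFP control roots (SD, n = 3 each).

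AGP5 and AGP10 completed the classical AGPs that rose. AGP5 (AT1G35230; chromosome 1, 12917149 to 12917763, forward strand) read 12.83, 12.48 and 12.95 in OBP4 roots, against 11.66, 12.14 and 11.93 in GFP control roots. The spread within each group was wider than for AGP27, yet the groups did not overlap, and AGP5 rose by 0.84 ± 0.18 (SE), a 1.79-fold change at limma's adjusted p = 0.0362. AGP10 (AT4G09030; chromosome 4, 5792207 to 5792790, forward strand) read 15.59, 15.57 and 15.73 in OBP4 roots, against 15.18, 15.26 and 15.21 in GFP control roots. Both groups were near the ceiling. AGP10 rose by 0.42 ± 0.07 (SE), a 1.33-fold change at limma's adjusted p = 0.0194. AGP5 had no call without GFP replicate 1 (adjusted p = 0.0956), GFP 3 (0.106), OBP4 replicate 1 (0.0989) or OBP4 3 (0.103), and AGP10 had none without GFP 1 (0.0726), GFP 2 (0.0533), GFP 3 (0.0754) or OBP4 3 (0.055). With the mean of the photosynthesis genes as a covariate, adjusted p was 0.0683 for AGP5 and 0.0511 for AGP10.

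The other 7 classical AGPs did not pass. AGP1 was nearest among those with a positive difference, at 15.43, 15.58 and 15.55 in OBP4 roots, against 15.14, 15.23 and 15.31 in GFP control roots. Its groups did not overlap, with a difference of 0.29 ± 0.08 (SE) and limma's adjusted p = 0.0706. AGP7 lay the other way, at 15.23, 15.15 and 15.2 in OBP4 roots, against 15.57, 15.57 and 15.39 in GFP control roots, a difference of -0.32 ± 0.08 (SE; limma's adjusted p = 0.0551). AGP4, also called JAGGER and known for its part in closing the embryo sac to further pollen tubes, differed by -0.01, with a 95% confidence interval of -0.16 to 0.14. AGP4 averaged 15.85 ± 0.04 in OBP4 roots and 15.86 ± 0.02 in GFP control roots (SD, n = 3 each), at the top of the scale, where a change would hardly show. AGP2, AGP9 and AGP26 had differences of -0.09 to -0.18. As a class, the 12 classical AGPs that the rule kept had 5 higher (41.7%, against 5.23% of all loci), 0 lower (against 8.48%) and 7 without a call. Their median difference was 0.14, against 0.02 over all loci. Classes this small make such shares coarse. AGP3, which the rule leaves out, is not in these counts, and it fell by 0.58 (limma's adjusted p = 0.00793).

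**Figure D2:**
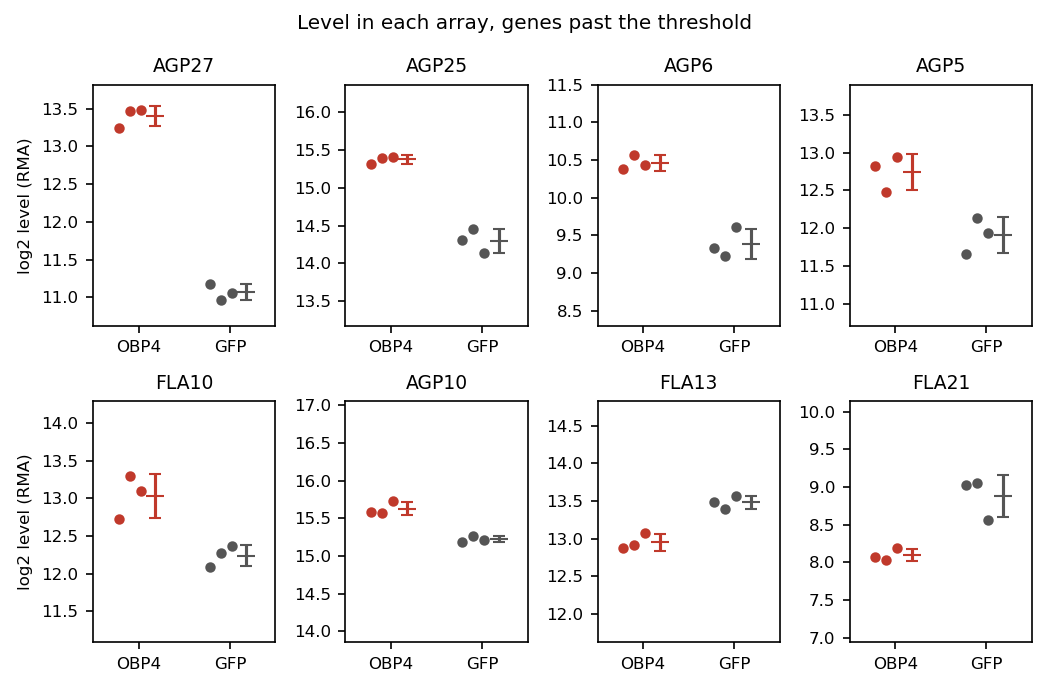
Log2 level (vertical axis, RMA values; every panel spans the same number of log2 units) in each array for the 8 genes past the threshold, with OBP4 arrays at the left and GFP control arrays at the right. Dots are arrays, in the order of replicates 1 to 3, and bars are mean and SD (n = 3). In all 8 panels the groups do not overlap, which choosing genes by a test on these same arrays favours. Of all loci, 36.9% have groups that do not overlap.

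Among the FLA genes, FLA10 rose and FLA13 and FLA21 fell. FLA10 (AT3G60900; chromosome 3, 22499360 to 22501239, reverse strand), of group C, read 12.72, 13.29 and 13.1 in OBP4 roots, against 12.09, 12.27 and 12.37 in GFP control roots. The lowest OBP4 array was above the highest GFP array, and FLA10 rose by 0.79 ± 0.17 (SE), a 1.73-fold change at limma's adjusted p = 0.0358. The call was lost without GFP replicate 1 (adjusted p = 0.111), GFP 2 (0.094), GFP 3 (0.0823), OBP4 replicate 2 (0.0887) or OBP4 3 (0.108). The other genes of group C had no call. FLA8, close to FLA10 in sequence, had a difference of -0.06 (95% confidence interval -0.21 to 0.09) at a mean near the ceiling. FLA1, known for a part in shoot regeneration in culture, read 14.52, 14.7 and 14.37 in OBP4 roots, against 14.39, 14.52 and 14.61 in GFP control roots. Its groups overlapped, and the difference of 0.03 had a 95% confidence interval of -0.26 to 0.31.

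FLA13 (AT5G44130; chromosome 5, 17761090 to 17762003, forward strand), of group A, read 12.88, 12.91 and 13.08 in OBP4 roots, against 13.48, 13.4 and 13.57 in GFP control roots. It fell by 0.53 on the log2 scale (SE 0.09; 1.44-fold lower), with limma's adjusted p = 0.0167. FLA21 (AT5G06920; chromosome 5, 2142858 to 2143919, forward strand), of group D, read 8.07, 8.03 and 8.19 in OBP4 roots, against 9.03, 9.05 and 8.56 in GFP control roots. Neither pair of groups overlapped, and the FLA21 probes were dim. FLA21 fell by 0.78 (SE 0.15; 1.72-fold lower), with limma's adjusted p = 0.0288. FLA13 had no call without GFP replicate 1 (adjusted p = 0.0625), GFP 3 (0.065), OBP4 replicate 1 (0.0522) or OBP4 2 (0.0648), and FLA21 none without GFP 1 (0.0941), GFP 2 (0.0826), OBP4 1 (0.0817), OBP4 2 (0.0974) or OBP4 3 (0.0725), with the photosynthesis covariate (0.0673) or with trend and robust settings in eBayes (0.0561). In RNA of whole roots, fewer cells of a type and less RNA per cell cannot be told apart.

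All 6 genes of FLA group A and all 4 of group B had negative differences, of which the 1 called was FLA13. FLA6 differed by more than FLA13 but varied more between arrays, at 13.74, 13.9 and 13.43 in OBP4 roots, against 14.5, 14.27 and 14.05 in GFP control roots. Its groups did not overlap, with a difference of -0.58 ± 0.17 (SE) and limma's adjusted p = 0.0911. FLA17 of group B also differed by -0.58, with an SE of 0.36 and overlapping groups. FLA15 and FLA16 of group B had differences of -0.30 and -0.20 and no overlap either, with adjusted p of 0.104 and 0.111 by limma. FLA11 and FLA12, known for parts in the secondary walls of xylem and fibres, differed by -0.03 ± 0.09 and -0.22 ± 0.10 (SE) and were not called. Of 9 xylem and secondary wall genes, 0 passed the test (13.7% of all loci), with 0 also at an unadjusted p under 0.05 (28.5% of all loci). Their differences were -0.20 to 0.03. FLA4, the salt response gene that the array annotates as SOS5 and the rule therefore leaves out, read 14.21, 14.25 and 14.03 in OBP4 roots, against 14.11, 14.04 and 14.09 in GFP control roots. Its difference of 0.08 ± 0.08 (SE) had no call. FEI1 and FEI2, receptor kinases of the FLA4 pathway, differed by 0.04 and 0.11 and were not called.

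None of the 12 AG peptides and none of the 3 lysine-rich or 2 chimeric AGPs passed the limma test, against 13.7% of all loci. In classes this small, 0 calls do not set them apart from that share. At an unadjusted p under 0.05 these were 3 of the 12 AG peptides, 2 of the 3 lysine-rich AGPs and 1 of the 2 chimeric AGPs, against 28.5% of all loci. AGP13 read 14.73, 14.56 and 14.91 in OBP4 roots, against 15.54, 15.32 and 15.07 in GFP control roots. AGP41 read 10.38, 10.72 and 10.91 in OBP4 roots, against 11.46, 11.44 and 11.1 in GFP control roots. In both AG peptides every OBP4 array was below every GFP array. Their differences were -0.58 ± 0.15 and -0.66 ± 0.17 (SE), with adjusted p of 0.0686 and 0.0671 by limma. AGP21 and AGP14, AG peptides studied for parts in root hair growth, differed by -0.15 and 0.11, with 95% confidence intervals of -0.34 to 0.05 and -0.07 to 0.28. AGP12, AGP15 and AGP24 were near the ceiling in both groups, with differences of -0.01 to 0.06.

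AGP17, the lysine-rich AGP known from a mutant that resists Agrobacterium, had the most negative difference of the set but the OBP4 arrays disagreed. Its level was 8.99, 7.78 and 7.88 in OBP4 roots, against 8.99, 9.48 and 8.96 in GFP control roots. OBP4 replicate 1 lay within the GFP range and the other 2 OBP4 arrays below it. The difference was -0.93 ± 0.36 (SE), with limma's adjusted p = 0.168. Without OBP4 replicate 1 it was -1.31, with limma's adjusted p = 0.0252, so this array decided the call. AGP18 and AGP19 differed by -0.24 and -0.06. AGP30, a chimeric AGP known from root regeneration and seed germination, read 15.2, 15.36 and 15.3 in OBP4 roots, against 15.53, 15.55 and 15.62 in GFP control roots. Its difference of -0.27 ± 0.07 (SE) came near the threshold, with limma's adjusted p = 0.0664.

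**Figure D3:**
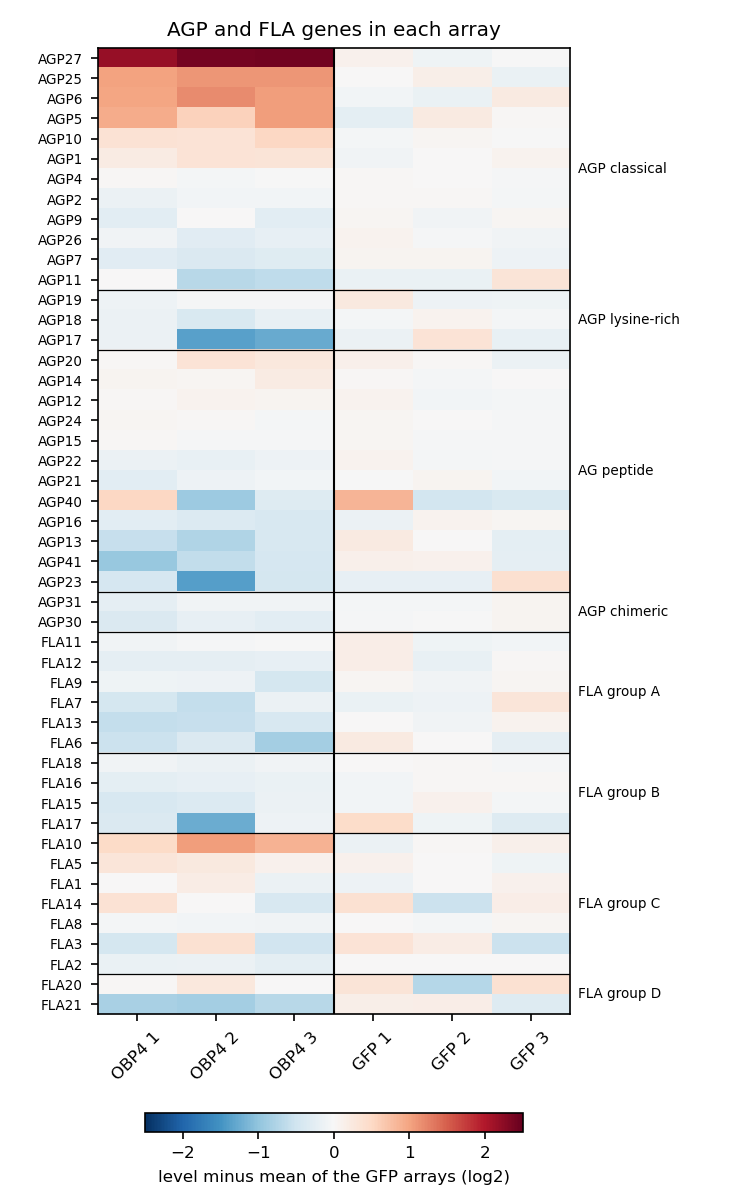
Level of each of the 48 genes (rows, by class) in each of the 6 arrays (columns, OBP4 at the left), as the log2 difference from the mean of the 3 GFP control arrays, red for higher and blue for lower. AGP17 is near 0 in OBP4 replicate 1 and low in OBP4 replicates 2 and 3, while AGP27 is high in all 3 OBP4 arrays.

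Small negative differences recurred over the classes. In 20 of the 48 genes every OBP4 array was below every GFP array, and in 9 every OBP4 array was above every GFP array. Together these 29 genes are 60.4% of the set, against 36.9% of all loci; the shares over all loci were 18.9% below and 18.0% above. When the variance prior of eBayes was allowed to follow brightness and made robust, 11 genes were called lower: AGP7, AGP13, AGP16, AGP22, AGP30, AGP41, FLA2, FLA6, FLA13, FLA15 and FLA16. Under those settings 7 were called higher, AGP1 with the 6 above, and 7.85% of all loci were called higher and 10.8% lower. Root hair genes fell beside these differences: 6 of 9 fell (EXPA7, EXPA18, LRX2, MRH6, COW1 and RHD2, by 0.43 to 1.09), against 8.48% of all loci under the main settings. The summed linear level of the 9 was 216187 to 252039 in the OBP4 arrays and 321359 to 344682 in the GFP arrays. AGP3, which the rule leaves out, read 14.6, 14.74 and 14.53 in OBP4 roots, against 15.23, 15.22 and 15.17 in GFP control roots, and fell by 0.58 (SE 0.08; limma's adjusted p = 0.00793). The part of root hair cells in the differences of the 48 genes was not tested.

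Under the main settings, calls were few among the brightest genes. Of the 48 genes, 19 (39.6%) had a mean of 15 or more, against 10.7% of all loci, and 1 of these 19, AGP10, was called. The largest difference among the 19 was 0.58 in size. Of all 3504 loci that bright, 168 (4.79%) were called. With trend and robust eBayes, AGP1, AGP7, AGP13, AGP22, AGP30, FLA2 and FLA16 of the 19 were called too. Those settings called 7.85% of all loci higher and 10.8% lower. Their share among loci with a mean of 15 or more was not worked out. These added calls therefore have no background at the same brightness. The part of brightness in the number of calls was not tested. At means from 8 to 13, 5 of 13 genes were called, AGP27, AGP6, AGP5, FLA10 and FLA21, against 21.1% of all loci at such means. From 13 to 15, 2 of 11 were called, AGP25 and FLA13, against 19.3% of all loci there. The 5 genes under a mean of 8 were AGP23, AGP40, FLA3, FLA14 and FLA20, and 0 of them were called by limma, with 0 also at an unadjusted p under 0.05; of all loci that dim, 3.87% were called.

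**Figure D4:**
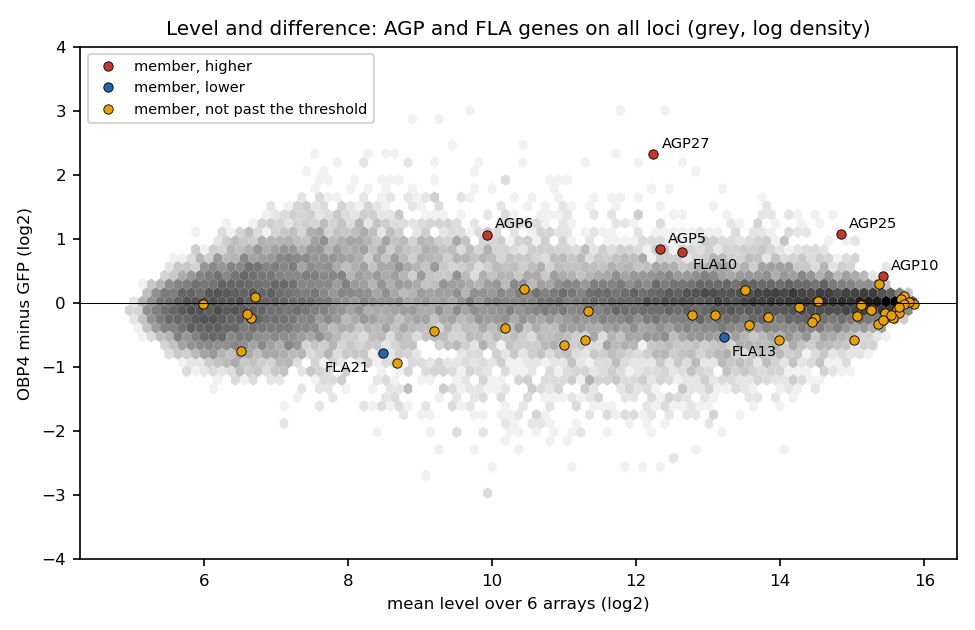
Mean log2 level over the 6 arrays (horizontal axis) against the difference between OBP4 and GFP control roots (vertical axis, log2, shown from -4 to 4, so that more extreme loci are left off), with all loci as grey density and the 48 genes as dots. The genes crowd at the right edge, where 19 of them have a mean of 15 or more and 1 is called.

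For 5 of the 48 genes the array held 2 gene models each, whose probe sets could differ widely. For AGP31, a chimeric AGP of vascular tissue, model 1 read 6.52, 6.79 and 6.78 in OBP4 roots, against 6.95, 6.9 and 7.14 in GFP control roots, and model 2 read 15.81, 15.86 and 15.86 in OBP4 roots, against 15.76, 15.82 and 15.8 in GFP control roots. The average of -0.12 for this locus thus joins a dim model at -0.30 ± 0.11 with one at the ceiling at 0.05 ± 0.06 (SE). For AGP16, an AG peptide, the average of both models was not called (-0.34 ± 0.09, SE; limma's adjusted p = 0.0601). Its brighter model 1 read 14.9, 14.89 and 14.96 in OBP4 roots, against 15.2, 15.22 and 15.16 in GFP control roots. That model on its own fell by 0.27 (SE 0.06), with limma's adjusted p = 0.0386 when gene models were fitted separately, and model 2 differed by -0.40 ± 0.15 (SE) with no call. For AGP17, model 1 read 11.3, 9.09 and 9.46 in OBP4 roots, against 11.45, 11.5 and 11.21 in GFP control roots, and the dimmer model 2 read 6.67, 6.48 and 6.3 in OBP4 roots, against 6.53, 7.46 and 6.71 in GFP control roots. OBP4 replicates 2 and 3 were below every GFP array in both models, which had differences of -1.44 ± 0.59 and -0.42 ± 0.26 (SE) and no call. The OBP4 minus GFP differences of the 2 models were -0.40 and -0.38 for FLA7 and -0.31 and -0.06 for AGP9, with no call.

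Genes that build the sugar chains of AGPs changed in part. The pathway list covers prolyl hydroxylation, glycosylation and the GPI anchor, and 16 of its 26 entries had their symbol at their locus in the tables used. The other 10, among them entries named HPGT, GALT and AGM, were left out for this mismatch of names. The 16 thus cover only part of the pathway. Of these 16, 1 rose (6.25%, against 5.23% of all loci), 3 fell (18.8%, against 8.48% of all loci) and 12 did not pass. FUT4 and FUT6, the fucosyltransferases that add fucose to AGPs, both fell by over 1 log2 unit. FUT4 (AT2G15390) read 14.3, 14.16 and 14.23 in OBP4 roots, against 15.29, 15.39 and 15.35 in GFP control roots. FUT6 (AT1G14080) read 13.64, 13.78 and 13.65 in OBP4 roots, against 14.65, 14.91 and 14.94 in GFP control roots. In both, the groups were separated by far more than the spread within them. FUT4 fell by 1.11 (SE 0.07; 2.17-fold lower) with limma's adjusted p = 0.000797, and FUT6 fell by 1.14 (SE 0.10; 2.2-fold lower) with limma's adjusted p = 0.00233. Both calls were kept in all 6 fits that left out 1 array. In the deposited series-wide table of the same samples, neither was called and both signs were turned, with differences of 0.01 for FUT4 and 0.10 for FUT6 (limma's adjusted p = 0.983 and 0.544). OBP4 itself, the check of the labels, differed by only 0.01 there (limma's adjusted p = 0.98).

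The remaining enzymes moved less. GALT31A, a galactosyltransferase of the AGP side chains, read 12.68, 13.02 and 12.97 in OBP4 roots, against 12.3, 12.41 and 12.22 in GFP control roots, and rose by 0.58 ± 0.12 (SE; limma's adjusted p = 0.0304). GLCAT14C, a glucuronosyltransferase, read 13.43, 13.4 and 13.4 in OBP4 roots, against 13.66, 13.7 and 13.68 in GFP control roots, and fell by 0.27 (SE 0.06; limma's adjusted p = 0.0346). The call of GALT31A was lost without GFP replicate 1 (adjusted p = 0.0973), GFP 2 (0.0622), GFP 3 (0.103), OBP4 replicate 2 (0.094) or OBP4 3 (0.0964). That of GLCAT14C was lost in all 6 such fits, without GFP 1 (0.0919), GFP 2 (0.108), GFP 3 (0.114), OBP4 1 (0.0712), OBP4 2 (0.106) or OBP4 3 (0.101), as well as with each array centred on its median (0.0647) and with the photosynthesis covariate (0.0719). GALT2 and GALT29A, galactosyltransferases, and RAY1, a glycosyltransferase, had differences of -0.06, 0.13 and 0.01 and were not called. The prolyl hydroxylases P4H2, P4H5 and P4H13, which prepare the backbone for its sugars, had differences of -0.13, -0.17 and -0.75 and were not called. GLCAT14A, at 0.00 ± 0.06 (SE), and GLCAT14B, at -0.31 ± 0.09 (SE), were not called either. The GPI anchor genes SETH1, SETH2, PNT1 and APTG1 had differences of 0.00 to 0.19 and no call.

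**Figure D5:**
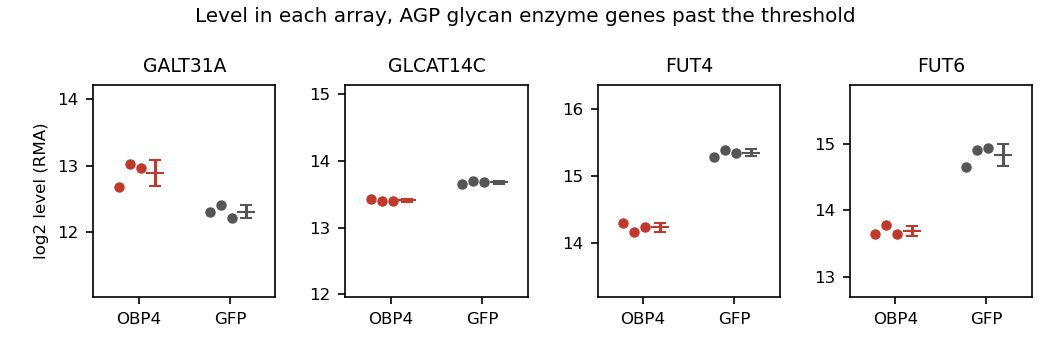
Log2 level (vertical axis, RMA values; every panel spans the same number of log2 units) in each array for the 4 AGP glycan enzyme genes past the threshold, OBP4 arrays at the left and GFP control arrays at the right. Dots are arrays and bars are mean and SD (n = 3); FUT4 and FUT6 are lower in OBP4 roots by 1.11 and 1.14.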

How the data were processed

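Per the labels' protocols, Cy3 was added to double-stranded cDNA made from root RNA. Each array's table, deposited by the authors, holds log2 values of 37118 gene models and a count of the probes behind each value (3 or 4 for models of the genes described here). The titles of the deposited tables name RMA, and the sources used here do not name its software or settings. A deposited series-wide table of log2 values, normalization not stated, served as an alternative. Models of a locus were averaged (32627 loci). All 48 symbols matched the TAIR10.1 reference table. limma 3.58.1 (R 4.3.3) compared the lines through lmFit and eBayes; its two-sided p-values were adjusted by Benjamini-Hochberg across every locus. Differences are OBP4 minus GFP. Arrays have no read depth, and 3 per group limit the precision. The fit was tested on simulated data for 32627 loci: it recovered 7 of 67 changes of 0.5 (log2), 31 of 67 of 1 and 50 of 66 of 2, with 2 calls among unchanged loci. Far fewer loci were changed there than the 4472 called in the data. The Benjamini-Hochberg cut-off depends on that share, so these rates do not give the power of the fits above.

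The genes and lists were chosen with earlier results of these data known. Any of the 48 genes may be named; those past the threshold get their value in every array. Of other lists, genes past the threshold are named, and some without a call as context, chosen after their values were seen. Alternatives were 3 other normalizations, the series-wide table, 2 filters on dim loci, trend and robust eBayes, the replicate number as a block, weights for arrays, the brightest model, stricter thresholds, a photosynthesis covariate and leaving out each array. Separate gene models and the inclusion of AGP3 were added after the data were seen. The arrays' image identifiers share a prefix, and their positions run by group, so position and group cannot be told apart. Labelled double-stranded cDNA does not keep the strand, so overlapping transcripts are not separated; FLA3 and FLA11 overlap another annotated locus, and no called member does. Probes shared between related genes were not examined.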

Additional observations from a re-analysis of the deposited data

Results flagged for a closer look

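The deposited series-wide table, whose columns are tied to the samples by accession, serves above only as an alternative. In it, limma called 2 of the 48 genes higher and 3 lower in the columns of the OBP4 samples. These are 4.17% and 6.25% of the set, against 3.17% (1034) and 2.38% (778) of all loci. What drew attention is that these calls differ from those of the array tables. AGP5 was the 1 gene called in both, with 12.31 ± 0.16 in its OBP4 columns and 11.31 ± 0.14 in its GFP columns (SD, n = 3 each; limma's adjusted p = 0.0117). AGP27 averaged 11.03 ± 0.08 in its OBP4 columns and 10.73 ± 0.05 in its GFP columns (SD, n = 3 each), a difference of 0.30 with limma's adjusted p = 0.0969. OBP4 itself differed by 0.01 there, with limma's adjusted p = 0.98.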

How the results depend on the processing

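AGP27, AGP25 and AGP6 kept their calls in the 6 fits without 1 array, under the 3 other normalizations, with the photosynthesis covariate and with the replicate block; AGP6 was below the filter that left out the dimmest 50% of loci. Without 1 array, the ranges were 3 to 5 genes higher, 0 to 1 lower and a median difference of -0.18 to -0.11; 0 to 1 pathway genes higher and 2 to 3 lower; 892 to 1309 of all loci higher and 1571 to 2048 lower. With adjusted p under 0.01, 3 of the 48 genes were higher and 0 lower, 0 pathway genes higher, and 669 and 1295 of all loci higher and lower; with a change of at least 1, these were 3, 0, 0, 560 and 999. With trend and robust eBayes, 11 genes and 6 pathway genes were lower and 2561 loci higher. Without the dimmest 25% of loci, 7 of the 43 genes left were lower, against 3211 of 24470 loci. Without the dimmest 50%, 9 of the 34 genes left were lower, against 2707 of 16313 loci, and 5 pathway genes were lower. The median difference was -0.10 without the dimmest 50%, -0.13 with arrays centred on their medians, -0.12 with the photosynthesis covariate and -0.03 in the series-wide table. That table gave 2 genes higher, 0 pathway genes higher, 0 lower, 1034 loci higher, 778 loci lower and an OBP4 difference of 0.01. It left AGP27 (0.30) and AGP25 (0.34) without a call and reversed AGP6 to -0.20, FLA21 to 0.02, FUT4 to 0.01, FUT6 to 0.10, GALT31A to -0.29 and GLCAT14C to 0.06; the cause was not tested. Same-numbered arrays did not deviate together (correlations -0.1967, 0.093 and -0.1695). Deviations from means of 3 arrays cannot decide whether the numbers pair the samples, and the main fit treats them as unpaired. With the replicate block, 3 genes were higher and 0 lower, 0 pathway genes higher, and 588 loci higher and 1114 lower. AGP3 would make 3 lower genes.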

Other observations

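AT5G14370, the locus 2083 bases to the left of AGP6 on chromosome 5, rose by 1.08 ± 0.12 (SE; limma's adjusted p = 0.00469), close to the 1.07 of AGP6 itself, while AT5G14390 on the other side differed by 0.27 with no call. AT5G06930, 1079 bases to the right of FLA21, fell by 1.09 (SE 0.09; limma's adjusted p = 0.00197). The other 6 called genes had no called neighbour. The 48 genes lie apart from each other, the closest pair being AGP24 and FLA20 with 105.1 kb between them. AT4G16980, which the array describes as an arabinogalactan protein without a symbol and the rule leaves out, read 13.6, 10.32 and 11.58 in OBP4 roots, against 11.87, 11.67 and 11.95 in GFP control roots; OBP4 replicate 1 is the array with the highest photosynthesis levels.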
